A study of Homo sapiens with 4 samples.

Results

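Autophagy core genes in GIST-T1 cells were represented by ULK1, BECN1, ATG5, ATG7, ATG12, ATG16L1, MAP1LC3B, GABARAPL1, SQSTM1 and TFEB. These 10 genes were picked by gene name out of 36337 gene names on the array, and all of their probes were kept, which gave 17 of 50599 probes. GIST-T1 is an established cell line from a gastrointestinal stromal tumor, and the cells were grown in serum-containing medium and given 100 pmol of a synthetic small RNA with a Nucleofector device. One group (2 arrays) received the mirVana miR-335 mimic, which acts as the mature miRNA, and the other (2 arrays) received mirVana Negative Control #1. Total RNA was taken after 48 h, and 100 ng of it was amplified, given a single dye label and run on an Agilent array of human transcripts. There were no untransfected cells, no other line and no other time point. The description of both mimic samples also carries a line that names miR-34a, whereas their title and transfection label name miR-335, and the mimic itself was not measured here.

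Autophagy encloses cytoplasm, protein aggregates or organelles in a double membrane, the autophagosome, which then fuses with the lysosome. A kinase complex (ULK1) and a lipid kinase complex (BECN1) start the membrane, 2 ubiquitin-like conjugation steps (ATG7, ATG12, ATG5, ATG16L1) attach LC3 and GABARAP proteins to it, and receptors such as SQSTM1 bring in the cargo. TFEB is a transcription factor of lysosomal and autophagy genes that mTOR signaling holds in the cytoplasm. Gastrointestinal stromal tumors are usually driven by the receptor tyrosine kinase KIT, and autophagy has been studied in them under KIT inhibition. Much of the control of autophagy acts on proteins, which mRNA arrays do not measure.

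The mature sequences of both arms of the miR-335 hairpin are shown first, since a mimic acts through its seed, given in capitals (bases 2 to 8 from the 5′ end), and the labels do not name the arm. Sequences and positions are from RefSeq (GRCh38.p14, plus strand), at chr7:130496126-130496148 and chr7:130496162-130496183.
hsa-miR-335-5p: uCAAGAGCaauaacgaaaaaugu
hsa-miR-335-3p: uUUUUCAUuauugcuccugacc
The 7-base match to the 5p seed, GCTCTTG, was sought on the given strand of the probe sequences, and 221 of all 50599 probes (0.437%) and 0 of the 17 probes of the core genes held it. The match to the 3p seed, ATGAAAA, was in 618 probes (1.22%) and in 1 probe of the core genes, that of GABARAPL1 at chr12:10375579-10375637 (hg19). The stretch from base 19 to base 47 of this probe is given with the match in capitals.
GABARAPL1: catctctgcaaATGAAAAgggttcttcct
A probe covers 60 bases or fewer of a transcript, so that the absence of a match says nothing about the remainder of the mRNA, and the match in GABARAPL1 is a description of the letters and not of a site in use.

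On each array, between 20386 and 21214 of the 50599 probes (40.3% to 41.9%) were well above background, no spot was saturated, and all 4 arrays shared 1 slide and 1 scan time. Levels are given as the log2 processed intensity minus the 75th percentile of the array, which lay between 178.8 and 189.7 intensity units. The number of arrays limits the precision, and an exact two-sided permutation test of 2 values against 2 has 0.333 as its smallest p, so that the tests rest on limma's estimate of the spread over all 20328 tested probes. Whether the replicates came from separate cultures is not stated in the labels, and the p-values then measure the spread between these arrays, which may be technical. GIST markers (KIT, ANO1, ETV1, PRKCQ and CD34) were well above background on all 4 arrays, as were EPCAM and CD14 among 9 markers of other cell types. CDH1, KRT20, PTPRC, CD3E, PECAM1 and VWF were above background on no array, and CDH5, an endothelial marker like PECAM1 and VWF, was on 2 of the 4. In RNA from a whole culture, fewer cells that express a gene and less of its RNA per cell cannot be told apart.

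To see whether the autophagy machinery differed between the mimic and the control, all probes of the core genes were compared. All 10 genes were detected, since 16 of their 17 probes were bright enough to be tested and every gene had at least 1 of them. No core gene passed the adjusted threshold of 0.05. In limma, 0 of 16 probes were called after Benjamini-Hochberg adjustment over all probes, against 2.62% of all tested probes (532 of 20328, with 1.15% lower and 1.47% higher), and 3 of the 16 had an unadjusted p under 0.05, against 25.3% of all tested probes. No core gene probe differed by more than 1.5-fold, a limit passed by 3.9% of tested probes. The differences (mimic minus control, log2) ran from -0.24 at a TFEB probe to 0.29 at an ATG7 probe. Taking the probe of highest mean signal for each gene, the median was -0.01, as it was over all tested probes, whose middle range from the 25th to the 75th percentile was -0.11 to 0.09. Below 0 were 9 of the 16 probes, against 53.8% of all tested probes. Mimic and control arrays did not overlap in 10 of the 16, against 59.7% of all tested probes.

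**Figure D1:**
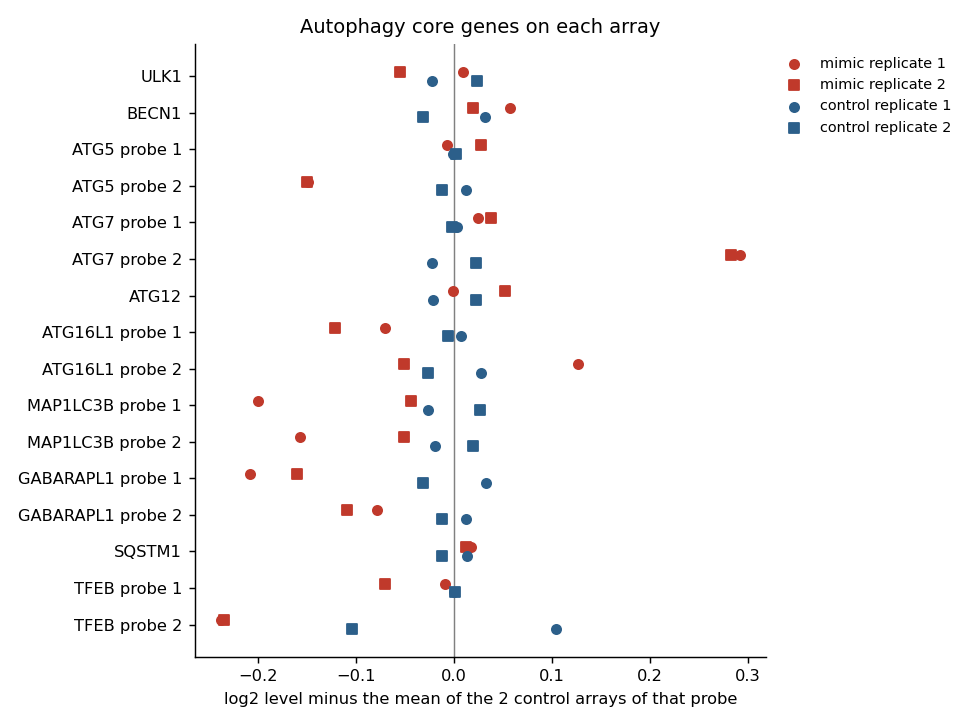
Level of each tested probe of the core genes on the 4 arrays, as the log2 level minus the mean of the control arrays of that probe (horizontal axis); red marks are mimic arrays, blue marks control arrays, circles replicate 1 and squares replicate 2. Most marks lie within 0.2 of 0, the mimic arrays of ATG7 probe 2 lie near 0.3 above its controls, and the control arrays of TFEB probe 2 lie 0.1 to either side of their mean.

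ULK1, the kinase that starts autophagosome formation when mTOR is inactive, was measured by 1 probe (chr12:132407342-132407401, plus strand, hg19). Its log2 level was 1.81 and 1.75 on the mimic arrays and 1.78 and 1.83 on the control arrays. The groups overlapped, and the difference of -0.02 ± 0.05 (SE, n = 2 per group) did not pass the test (limma adjusted p = 0.776, 95% interval -0.16 to 0.11). BECN1, the scaffold of the lipid kinase complex that marks the site of the new membrane, also had 1 probe (chr17:40962820-40962879, minus strand). Its levels were 2.22 and 2.19 with the mimic and 2.20 and 2.13 with the control. The groups overlapped again, and the difference was 0.04 ± 0.04 (limma adjusted p = 0.633, 95% interval -0.09 to 0.17).

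ATG7, the activating enzyme for both ubiquitin-like proteins, showed the largest difference between probes of 1 core gene. At its first probe (chr3:11468321-11468380, plus strand) the level was 1.67 and 1.68 with the mimic and 1.65 and 1.64 with the control. The difference there was 0.03 ± 0.04 (limma adjusted p = 0.625). At its second probe (chr3:11598763-11598822), which lies 130442 bases downstream, the level was 0.30 and 0.29 with the mimic and -0.01 and 0.03 with the control. Both mimic arrays lay above both control arrays at either probe, but the size was unequal, since the second probe differed by 0.29 ± 0.04, or 1.22-fold (95% interval 1.13 to 1.32). This was the lowest p among the core genes (unadjusted p = 0.00279) and it did not pass the adjusted threshold in limma (adjusted p = 0.0672). The probes differed from each other by 0.26, and what part of the transcripts each of them detects was not analysed here.

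ATG5, which is joined to ATG12 and is needed for LC3 lipidation, had a probe that was printed as 10 spots (chr6:106633866-106633925, minus strand). The mean level over the 10 spots was 1.98 and 2.02 on the mimic arrays and 1.99 and 1.99 on the control arrays. The difference was 0.01 ± 0.04 (limma adjusted p = 0.885, 95% interval -0.10 to 0.12), and the groups overlapped. Because the same probe was read 10 times on 1 array, it also gives the spread between spots. The SD over spots lay between 0.0646 and 0.0914, and the highest and lowest spot were 0.196 to 0.341 apart. The other core gene probes were read by a single spot per array.

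**Figure D2:**
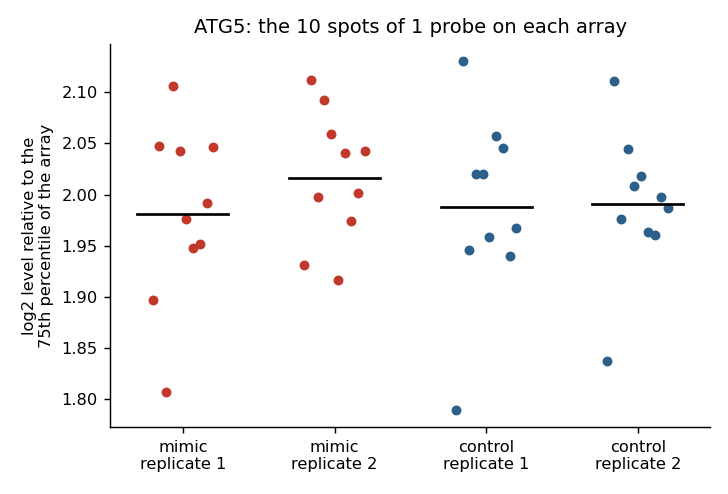
Log2 level, relative to the 75th percentile of the array, of the 10 spots of the repeated ATG5 probe on each of the 4 arrays; each point is a spot and the line is the mean of the array. The spots run from 1.79 to 2.13, the means lie between 1.98 and 2.02, and mimic and control arrays overlap.

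A second ATG5 probe, 1114 bases away (chr6:106632752-106632811), read -0.48 on each mimic array, and -0.31 and -0.34 on the control arrays. Both mimic arrays were lower there, with a difference of -0.15 ± 0.04 (unadjusted p = 0.0184), and the limma adjusted p was 0.13. The signs of the ATG5 probes were thus opposite, and they differed by 0.16. ATG12, the ubiquitin-like partner of ATG5, had 1 tested probe (chr5:115167373-115167432, minus strand), with levels of 2.81 and 2.86 with the mimic and 2.79 and 2.83 with the control. These overlapped, with a difference of 0.03 ± 0.04 (limma adjusted p = 0.744). The other ATG12 probe (chr5:115165841-115165900) did not reach the level well above background on any array, has only a bound, and was not tested.

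ATG16L1 binds the ATG12 and ATG5 conjugate and directs it to the growing membrane. Its brighter probe (chr2:234203900-234203959, plus strand) gave 3.27 and 3.22 with the mimic and 3.35 and 3.34 with the control. Both mimic arrays were lower, and the difference of -0.10 ± 0.04 did not pass the test (limma adjusted p = 0.254). The dimmer probe (chr2:234202948-234203007) read -0.38 and -0.56 with the mimic and -0.48 and -0.54 with the control, which overlapped (0.04 ± 0.08, limma adjusted p = 0.789).

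Probes of the LC3 and GABARAP genes lay below 0 together, each by a small amount. MAP1LC3B encodes LC3B, the membrane-bound protein by which autophagosomes are commonly followed. The probe at chr16:87436758-87436817 (plus strand) read 2.85 and 2.96 with the mimic and 2.99 and 3.03 with the control. The probe at chr16:87437440-87437499 read 2.24 and 2.40 with the mimic and 2.41 and 2.47 with the control. At either probe both mimic arrays were below both control arrays, mimic replicate 1 was the lowest of the 4, and the differences were -0.10 ± 0.06 and -0.12 ± 0.07 (limma adjusted p = 0.329 and 0.362). GABARAPL1 encodes a GABARAP relative that is also attached to the autophagosome. Its probe at chr12:10375579-10375637 (plus strand), the one with the 3p seed match shown above, read 4.10 and 4.07 with the mimic and 4.19 and 4.16 with the control. Its probe at chr12:10374676-10374735 read 2.03 and 2.08 with the mimic and 2.27 and 2.21 with the control. No mimic array reached a control array at either probe. The differences were -0.09 ± 0.04 and -0.18 ± 0.05, and neither passed the test (limma adjusted p = 0.245 and 0.134), although the second had an unadjusted p of 0.0201.

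SQSTM1, the receptor that binds ubiquitinated cargo and LC3 and is itself degraded by autophagy, had 1 probe (chr5:179263709-179263768, plus strand). It read 5.80 and 5.79 with the mimic and 5.79 and 5.77 with the control, with overlap and a difference of 0.01 ± 0.04 (limma adjusted p = 0.825, 95% interval -0.09 to 0.12). TFEB had 2 tested probes. That at chr6:41658820-41658879 (minus strand) read 3.88 on both mimic arrays, and 4.22 and 4.01 on the control arrays. The mimic arrays were lower than both control arrays, which were themselves 0.15 apart as an SD (n = 2), so that the difference of -0.24 ± 0.09 did not pass the test (limma adjusted p = 0.208, 95% interval -0.48 to 0.01). It was -0.13 without control replicate 1 and -0.34 without control replicate 2. The TFEB probe at chr6:41651718-41651777 read 2.66 and 2.60 with the mimic and 2.67 on both control arrays, a difference of -0.04 ± 0.04 (limma adjusted p = 0.593).

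**Figure D3:**
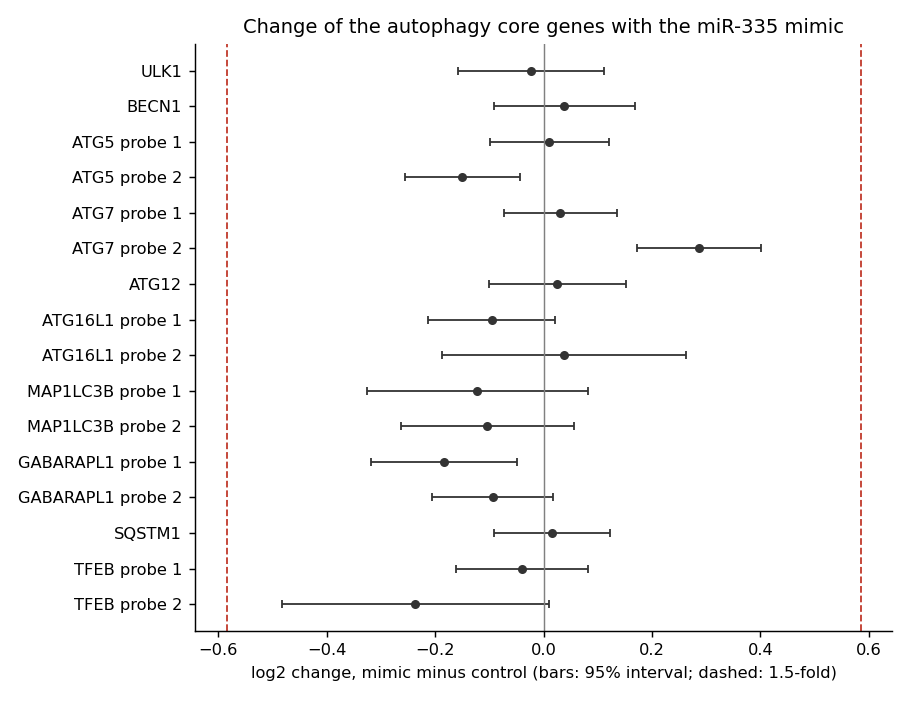
Difference between mimic and control (log2, horizontal axis) for the 16 tested probes of the core genes; points are limma estimates, bars their 95% intervals, and dashed lines a 1.5-fold difference either way. All 16 intervals lie inside the dashed lines, from 0.716-fold at the lower end (TFEB) to 1.32-fold at the upper end (ATG7).

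The size of difference that these arrays could have missed can be read from the intervals. In the reported fit, the 95% interval of each of the 16 probes lay within 1.5-fold either way. The lowest bound was 0.716-fold at the TFEB probe with the spread controls and the highest 1.32-fold at the second ATG7 probe. The median SE of the 16 probes was 0.04. Differences smaller than these bounds were not excluded by the test. The bounds hold for the reported scaling and spread model only, and with spike-in scaling the same TFEB probe was at -0.42 ± 0.08. With an intensity trend in the spread model, 3 core gene probes passed (the second ATG7 probe, the dimmer GABARAPL1 probe and the brighter TFEB probe, adjusted p = 0.03, 0.028 and 0.0379), against 15.2% of all tested probes. Scaling to the external spike-in RNAs, which read 0.19 higher on the mimic arrays in the median (7 probes, 0.12 to 0.26), moved the median of all tested probes to -0.20, and 13 core gene probes then passed as lower, against 46.8% of all tested probes in either direction. Relative to that shifted median, the core gene probes lay between -0.22 (TFEB) and 0.30 (ATG7).

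**Figure D4:**
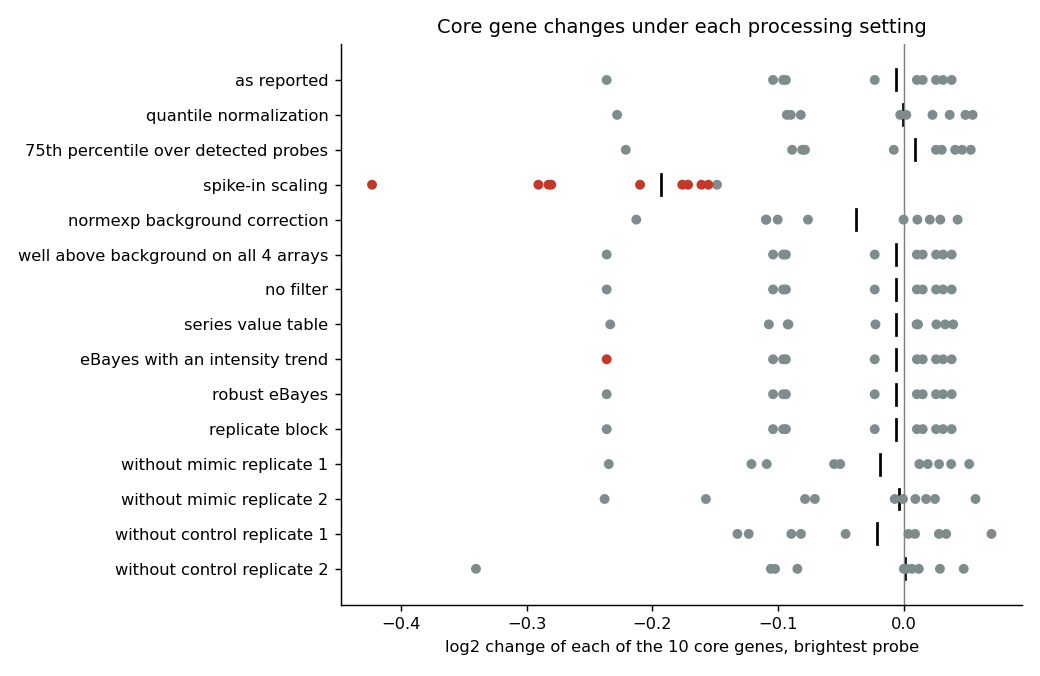
Difference between mimic and control (log2, horizontal axis) of the 10 core genes, each by its brightest probe, under the reported processing and 14 other settings (vertical axis); black lines are medians and red points have a limma adjusted p under 0.05. The medians lie near 0 except with spike-in scaling, where the median is -0.19, and TFEB is the leftmost point in every setting drawn.

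Other autophagy and lysosome genes were then taken by role from a list of 86 genes, of which 85 had a probe and 83 had a tested one. In limma, 3 of 111 tested probes passed the adjusted threshold (2 lower and 1 higher), near the 2.62% of all tested probes, and 21 had an unadjusted p under 0.05, against 25.3% of all. Of the 111 probes, 70 lay below 0, against 53.8% of all tested probes. The groups did not overlap in 63 of them, against 59.7% of all tested probes, and 2 differed by more than 1.5-fold, against 3.9%. The median over genes was -0.05.

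BNIP3L, a mitochondrial receptor that brings mitochondria to the autophagosome, rose at 1 of its 3 probes. This probe read 3.91 and 3.92 with the mimic and 3.13 on both control arrays, a rise of 0.78 ± 0.04 or 1.72-fold (limma adjusted p = 0.0314). The array assigns it to a transcript record other than the one it gives for both remaining BNIP3L probes. The other BNIP3L probes differed by -0.14 and -0.04 and did not pass (limma adjusted p = 0.284 and 0.776), so that the rise was seen at 1 probe only. VAMP8, a SNARE protein for the fusion of autophagosomes with lysosomes, fell at its only probe (chr2:85809032-85809091, plus strand), which read 2.73 and 2.70 with the mimic and 3.14 and 3.12 with the control. The difference was -0.42 ± 0.04 (limma adjusted p = 0.0407). CTSL1, the array's name for cathepsin L (CTSL), a lysosomal protease, fell at its brighter probe (chr9:90345326-90345385, plus strand), from 7.37 and 7.35 with the control to 6.78 and 6.83 with the mimic. That difference was -0.56 ± 0.04 (limma adjusted p = 0.0351). The dimmer CTSL1 probe (chr9:90343780-90343839) read 0.36 and 0.44 with the mimic and 0.10 and 0.04 with the control. Its difference of 0.33 ± 0.05 was in the other direction and did not pass (limma adjusted p = 0.0783). The called probes of BNIP3L, VAMP8 and CTSL1 depended on the settings. With the replicate number as a block, their limma adjusted p was 0.125, 0.131 and 0.125, in that order. With no filter on the probes it was 0.41, 0.455 and 0.417. They stayed called with each other scaling tried, a stricter filter, and the trend and robust variance models. Without any 1 of the 4 arrays these 3 probes were no longer called (limma adjusted p between 0.134 and 0.197), while their differences stayed between 0.776 and 0.787 for BNIP3L, -0.43 and -0.40 for VAMP8, and -0.58 and -0.54 for CTSL1.

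**Figure D5:**
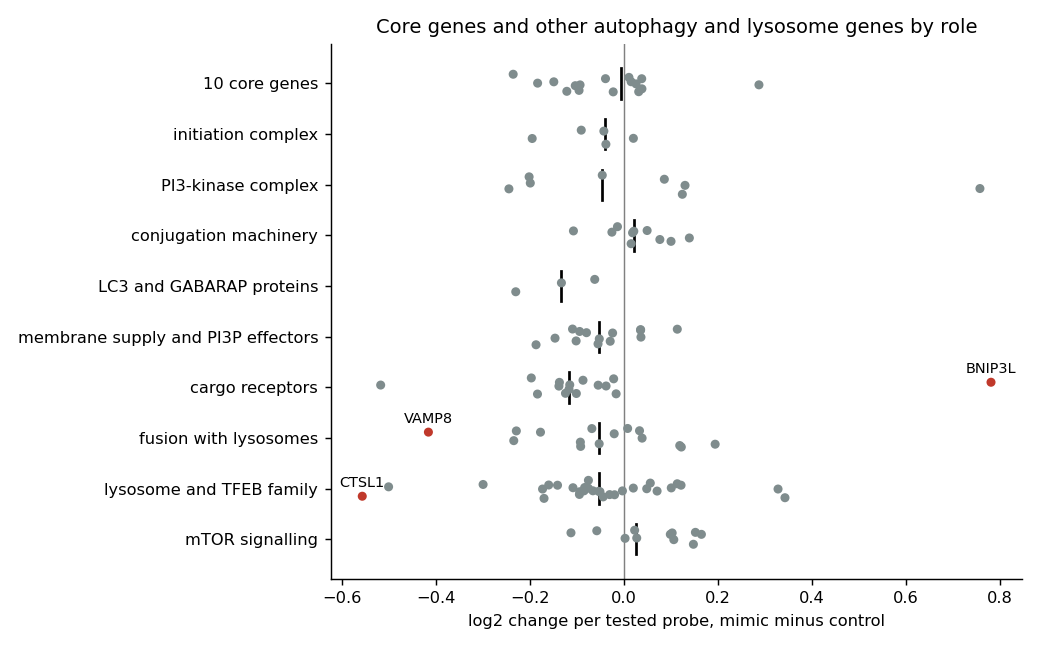
Difference between mimic and control (log2, horizontal axis) for each tested probe of the core genes and of the 86 other genes, grouped by role (vertical axis, points spread vertically for legibility); black lines are medians with 1 probe per gene and red points are the 3 probes that passed the adjusted threshold in limma. BNIP3L lies at 0.78, VAMP8 at -0.42 and CTSL1 at -0.56, and the role medians lie between -0.13 and 0.02.

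Among the partners of ULK1 (initiation complex, 5 tested probes), 0 passed and the median was -0.04. The ends of that group were ULK2, a second ULK kinase, at -0.20, and ATG13, a subunit of the ULK1 complex, at 0.02 by its brighter probe. Neither sign held without every array, since ULK2 was at 0.08 without mimic replicate 2 and this ATG13 probe at -0.01 without control replicate 1. The dimmer ATG13 probe lay the other way, at -0.09, and was at 0.04 without mimic replicate 1. Of the lipid kinase complex around BECN1 (8 probes), 0 passed. Its lowest gene was PIK3R4, the regulatory subunit, at -0.25 (limma adjusted p = 0.143). Its highest was ATG14, which brings the complex to autophagy, and which read -2.59 and -1.25 with the mimic and -2.51 and -2.84 with the control. Mimic replicate 2 stood apart, and the ATG14 difference was 0.76 ± 0.51 with it and 0.09 without it. The remaining conjugation genes (10 probes, 0 passed, median 0.02) ran from ATG16L2, a relative of ATG16L1, at -0.11 to ATG10, the conjugating enzyme for ATG12, at 0.14.

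With the core genes included, 7 probes of 5 LC3 and GABARAP genes were tested. In limma 0 of the 7 passed, 2 had an unadjusted p under 0.05, and all 7 lay below 0 with no overlap between mimic and control arrays, against 53.8% and 59.7% of all tested probes. Their differences ran from -0.23 to -0.06, with a median over genes of -0.10. MAP1LC3A, which encodes a relative of LC3B, was the lowest, with 0.98 and 0.97 on the mimic arrays and 1.24 and 1.18 on the control arrays (-0.23 ± 0.04, limma adjusted p = 0.093). GABARAP was at -0.06 and GABARAPL2 at -0.13. The 7 probes stayed below 0, and below the median of all probes, under each normalization tried and without any 1 array. Leaving out 1 array could not turn their sign, since mimic and control arrays did not overlap at any of the 7. The filters leave the differences as they are. Detected-probe and spike-in scaling shift all probes alike, so that they cannot change the order of the probes. With spike-in scaling the 7 probes lay between -0.22 and -0.05 relative to the shifted median.

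Cargo receptors other than SQSTM1 were tested with 15 probes, which came from 10 genes. Of the 15 probes, 14 lay below 0, against 53.8% of all tested probes. The exception was the called BNIP3L probe described above. The number below 0 was 11 without mimic replicate 1, 12 without control replicate 1 and 13 without control replicate 2. Without control replicate 2, 11 lay below the median of all probes. CALCOCO2, a receptor for ubiquitin-coated bacteria and mitochondria, was the lowest, with -0.07 and -0.23 on the mimic arrays and 0.56 and 0.18 on the control arrays (-0.52 ± 0.16, limma adjusted p = 0.169). Its control arrays were farther apart than its mimic arrays. The membrane supply genes (14 probes, 0 passed) ran from WIPI1, a reader of the lipid that the BECN1 complex makes, at -0.19 to TMEM41B, a lipid scramblase, at 0.11 by its brighter probe. The dimmer TMEM41B probe lay the other way, at -0.10, and neither passed. By the brightest probe of each gene, the fusion genes (15 probes) ran from VAMP8 to EPG5, a tethering factor, at 0.12. EPG5 was at -0.25 without mimic replicate 2 and at -0.005 without control replicate 2. The highest of the 15 probes was at 0.19. For mTOR signaling, 11 probes were tested, 0 passed and the median was 0.02. By the brightest probe, its genes ran from TSC1, an inhibitor of the pathway, at -0.11 to DEPTOR, an mTOR-binding protein, at 0.15. The highest of the 11 probes was at 0.16. Without control replicate 1 DEPTOR was at -0.04, and without control replicate 2 TSC1 was at -0.02.

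Since TFEB binds DNA, promoters of its pathway were searched for CACGTG, the palindromic core of the element that TFEB binds, which reads the same on both strands. The windows were RefSeq promoters (GRCh38.p14) from 250 bases before to 50 after a start site. Of 35116 promoters in all, 2548 (7.26%) held the motif, as did 15 of 78 (19.2%) of those of the 63 listed autophagy and lysosome genes that had a RefSeq promoter and 0 of the 15 promoters of the 10 core genes. Some of those with the motif are shown with 30 bases each, the motif in capitals, to give its setting in genes of the lysosome, namely NEU1 (chr6:31862930-31862959, minus strand), CTSD (chr11:1763957-1763986, minus), MCOLN1 (chr19:7522571-7522600, plus) and CTSA (chr20:45891281-45891310, plus).
NEU1: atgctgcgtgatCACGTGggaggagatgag
CTSD: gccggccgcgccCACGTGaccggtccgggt
MCOLN1: accagaggcggtCACGTGaggggctctggg
CTSA: gaggaagactgtCACGTGgcgccggagttc
NEU1 (neuraminidase), CTSD and CTSA (cathepsins) are lysosomal enzymes and MCOLN1 is a lysosomal calcium channel, at 0.11 the highest of its group by the brightest probe, and at -0.01 without control replicate 2. None of the 14 tested genes with the motif passed the adjusted threshold in limma, and their median difference was 0.03 (-0.18 to 0.76, the highest being the ATG14 probe described above). The 46 tested genes without the motif had a median of -0.07. A match describes the letters of the window and not binding, and no test of this difference was made.

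In the group of lysosomal and TFEB family genes as a whole, 30 probes were tested, and 21 lay below 0, against 53.8% of all tested probes. Of the 30 probes 1 passed (CTSL1), against 2.62% of all tested probes, and the median was -0.05. LAMP2, a lysosomal membrane protein whose probes are assigned to separate splice forms, was looked at after its values had been seen. The probe for its NM_013995 form read 0.34 and 0.28 with the mimic and 0.76 and 0.86 with the control, a difference of -0.50 ± 0.06 that did not pass (limma adjusted p = 0.0536). The probes for its NM_002294 and NM_001122606 forms differed by 0.12 and -0.14 (limma adjusted p = 0.569 and 0.14). As with ATG7 and CTSL1, probes of the same gene thus gave unequal values, and a difference between splice forms was not tested.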

How the data were processed

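Transcript levels of GIST-T1 cells were read on 4 arrays, 2 per group, which were grouped by their transfection label. The deposited scanner files give an intensity for each spot, made by the authors with Feature Extraction 10.7.3.1 and background-subtracted and detrended within each array but not normalized between arrays. A series-wide table of the same intensity values, rounded by the authors, was used as an alternative. Control spots and spots flagged as outliers (356 to 395 per array) were left out, repeated spots were averaged after taking log2, and each array's 75th percentile over its probes was subtracted. A probe entered the test if 1 group or both had it well above background on both of its arrays (20328 probes, 15454 gene names). A probe was well above background on an array if at least 0.5 of its usable spots were.

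The comparison used lmFit and eBayes of limma (version 3.58.1, under R 4.3.3) without covariates, with Benjamini-Hochberg adjustment over all tested probes and a threshold of 0.05. The fit was also run on simulated data that took the means and SDs of these probes, and the outcome is not given here. Figures were drawn with matplotlib 3.10.9. Alternatives were quantile, detected-probe and spike-in scaling, normexp correction (offset 50), other filters, the series value table, other variance models, a replicate block, leaving out each array, and the methods' t-test. Pairing of the arrays by replicate number was not assumed in the reported fit. Replicate differences of the groups correlated at 0.03, which cannot show that the arrays were unpaired.

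The core genes, and the lists of pathway genes and markers, were chosen with earlier results of these data known. Named genes were the 10 core genes with every probe, the lowest and highest tested gene of each role by the probe of highest mean signal, and each pathway gene with a called probe; LAMP2 was added. Gene names and hg19 positions are those of the array files, and all 17 probe accessions matched RefSeq. Exons and untranslated regions were not analysed here, since no annotation of that build was used.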

Additional observations from a re-analysis of the deposited data

How the results depend on the processing

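No probe of the core genes was called, and none differed by more than 1.5-fold, under quantile or detected-probe scaling, normexp correction, other filters, the series value table, robust eBayes, or without any 1 array. Core gene calls were 13 with spike-in scaling, 3 with an intensity trend and 5 by the methods' t-test without adjustment (against 4115 of all 20328 probes, 20.2%, and 0 after adjustment). Pathway calls, 3 as reported, were 62 with spike-in scaling (61 lower), 8 with normexp, 16 with the trend, and 0 with no filter (9 at an unadjusted p under 0.05), by the adjusted t-test (25) and without any 1 array. With the replicate number as a block, core and pathway calls were both 0 (1 and 16 at an unadjusted p under 0.05) and calls over all probes fell to 0, with 4400 at an unadjusted p under 0.05 in limma. The core gene median moved by more than its replicate SD (0.045) only with spike-in scaling, to -0.19. In the other settings it lay between -0.038 (normexp) and 0.009 (detected-probe scaling). By the brightest probe of each gene, signs turned there for SQSTM1 (-0.17), ATG12 (-0.16), BECN1 (-0.15), ATG5 (-0.18) and ATG7 (-0.16), for ATG5 with normexp (-0.00044), and without mimic replicate 2 for ATG12 (-0.00094, and up to 0.0517 without another array), ATG5 (-0.0075, up to 0.0278) and ULK1 (0.0089, down to -0.0557), none of which was called in the reported fit. The dimmer ATG16L1 probe turned to -0.15 with spike-in scaling and to -0.05 without mimic replicate 1. The cause of these changes was not tested. Over all probes the calls numbered 532 as reported, 9510 with spike-in scaling, 1550 with normexp, 3083 with the trend, 0 with no filter (3627 at an unadjusted p under 0.05), and 8 without mimic replicate 2 and 0 without each other array. Among tested core and pathway probes the SE was largest for ATG14 (0.51), and the second ATG12 probe was too dim to test.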
